A study of Homo sapiens with 8 samples.

Results

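The genes described here are 40 splicing regulators, chosen by symbol from a written list: 13 genes of SR proteins and the related TRA2A and TRA2B, 20 of hnRNPs and the pyrimidine tract proteins PTBP1 and PTBP2, 5 of factors that recognise the branch point and the 3′ splice site, and the RNA-binding genes RBM39 and RBM5. All 40 were found among the 58828 genes counted and all 40 passed the filter on low counts, which left 19784 genes to test. RNA was sequenced from 22RV1 and DU145, both established human prostate cancer cell lines, carrying a doxycycline-inducible PAGE4 construct or the empty vector and treated with H2O2 or with PBS for 12 h. PAGE4 is a cancer/testis antigen of the prostate, and the study asked how it acts under oxidative stress. Each of the 8 combinations of line, construct and treatment has 1 library, namely 22RV1 vector PBS, 22RV1 vector H2O2, 22RV1 PAGE4 PBS, 22RV1 PAGE4 H2O2 and the same 4 in DU145. All cells received doxycycline, and each construct in each line is 1 transduced culture. The labels give 200 mM H2O2, and a legend of the study gives a lower dose for its other mRNA measurements.

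SR proteins bind exonic enhancers through RNA recognition motifs and recruit the spliceosome through arginine-serine-rich tails, which CLK and SRPK kinases phosphorylate. The hnRNPs coat nascent transcripts, and many of them silence exons, so that the balance between both families is known to set the inclusion of alternative exons. U2AF1 and U2AF2 bind the 3′ splice site and hand it to the SF3A and SF3B subunits at the branch point. Many genes of both families contain a conserved exon whose inclusion sends the transcript to nonsense-mediated decay, and counts per gene do not separate such transcripts from coding ones.

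Total counts ranged from 25482984 to 43310401 per library. PAGE4 itself had 0 or 1 counts in the 4 vector libraries and between 1001 and 1489 in the 4 PAGE4 libraries. All 7 markers listed for 22RV1 were higher in every 22RV1 library than in any DU145 library, and of the 6 listed for DU145, VIM, CAV1 and S100A2 were higher in DU145, CD44 and LGALS1 overlapped, and KRT5 had between 0 and 3 counts in both lines. HMOX1, a heme oxygenase gene that oxidants induce, went from 3.38 to 136 CPM in 22RV1 vector cells, from 6.04 to 70.6 in 22RV1 PAGE4 cells, from 86.8 to 119.5 in DU145 vector cells and from 85.6 to 101 in DU145 PAGE4 cells with H2O2. SRXN1, another of the 4 oxidative stress genes listed, had fewer counts with H2O2 (393) than with PBS (582) in DU145 PAGE4 cells. Since no condition has a second library, the tests take the 4 matched pairs of libraries as replicates, and their p-values measure only the spread between these 8 libraries. An H2O2 effect within 1 line rests on the vector pair and the PAGE4 pair of that line alone. A difference of effects between the lines sets the pairs of 1 line against those of the other. In bulk RNA, fewer cells of a type and less RNA per cell cannot be told apart. Levels are CPM (counts relative to the total of the library) scaled by TMM, differences are log2 fold changes from edgeR's quasi-likelihood test with standard errors, and a gene was called at a Benjamini-Hochberg adjusted p under 0.05 over all 19784 genes.

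Some members share sequence or position with other genes, and the strand setting of the counting is not given in the sources used here. HNRNPA3 (GENCODE 44 on GRCh38, chr2:177212694-177223959) overlaps NFE2L2 on the opposite strand and MIR4444-1, together over 54.8% of its exon bases. SRSF2 (chr17:76734115-76737333) overlaps MFSD11 on the opposite strand and MIR636, together over 27.7%. HNRNPU overlaps COX20 and another antisense gene over 19.0%, and SRSF1 (chr17:58000919-58007346) overlaps 2 genes without a symbol, 1 of them antisense, over 35.1%. On the same strand, HNRNPUL2 overlaps HNRNPUL2-BSCL2 over 44.3% and HNRNPH2 overlaps RPL36A-HNRNPH2 over 15.8%. Genes on both strands, among them RBM6 for RBM5 and NRAV for SRSF9, overlap RBM5 over 21.2% and SRSF9 over 46.7%. Smaller overlaps, not all listed here, include HNRNPA2B1 with CBX3 and NFE2L3 on the opposite strand over 12.5%. HNRNPUL1 overlaps TGFB1 and another antisense gene over 9.06%, and HNRNPL a gene without a symbol on its own strand over 8.64%. Of the 100-base windows of the main transcript, 33.2% also occur elsewhere in the genome for HNRNPA1, 18.8% for HNRNPA3 and 15.8% for HNRNPC. U2AF1 is the most uncertain member: 243 of its 255 windows that lie within 1 exon occur exactly in the copy U2AF1L5, and it had only 219 to 367 counts per library.

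The start regions of 4 members that carry the main results below are shown first, as the 250 bases before the RefSeq start site on GRCh38.p14, 5′ to 3′ on the gene's own strand. SRSF1 (chr17:58007247-58007496, minus strand), TRA2B (chr3:185938015-185938264, minus strand) and HNRNPF (chr10:43408858-43409107, minus strand) moved differently with H2O2 in the 2 lines, and HNRNPA3 (chr2:177212544-177212793, plus strand) had the lowest p of all members in the H2O2 fit over both lines. Capitals mark matches on either strand to TGACNNNGC, the core letters of the antioxidant response element.
SRSF1: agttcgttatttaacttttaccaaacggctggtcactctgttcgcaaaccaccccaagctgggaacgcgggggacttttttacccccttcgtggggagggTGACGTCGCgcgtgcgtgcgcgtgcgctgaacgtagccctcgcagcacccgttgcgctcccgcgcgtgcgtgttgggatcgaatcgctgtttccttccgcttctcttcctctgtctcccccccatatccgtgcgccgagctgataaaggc
TRA2B: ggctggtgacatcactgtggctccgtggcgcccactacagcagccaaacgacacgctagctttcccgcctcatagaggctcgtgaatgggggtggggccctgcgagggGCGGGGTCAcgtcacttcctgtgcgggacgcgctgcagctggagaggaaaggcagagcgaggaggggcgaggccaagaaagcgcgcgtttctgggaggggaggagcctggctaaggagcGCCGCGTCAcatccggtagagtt
HNRNPF: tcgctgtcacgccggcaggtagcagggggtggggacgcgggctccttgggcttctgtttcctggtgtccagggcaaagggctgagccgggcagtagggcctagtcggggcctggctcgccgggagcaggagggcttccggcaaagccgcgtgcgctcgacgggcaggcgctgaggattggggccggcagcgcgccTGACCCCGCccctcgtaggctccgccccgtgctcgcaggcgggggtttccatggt
HNRNPA3: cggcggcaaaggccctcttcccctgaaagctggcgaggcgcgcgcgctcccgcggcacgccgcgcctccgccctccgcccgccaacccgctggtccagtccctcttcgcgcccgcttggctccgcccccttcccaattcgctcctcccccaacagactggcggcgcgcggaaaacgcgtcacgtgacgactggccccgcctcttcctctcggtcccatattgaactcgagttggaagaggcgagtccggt
The core was present once before SRSF1, at 2 places before TRA2B, once in the window shown for HNRNPF and not in the window of HNRNPA3. HNRNPF has another start site, whose window (chr10:43397278-43397527, minus strand, not shown) held no match. A window was given for 36 of the 40 members, with 51 windows in all, and none for SRSF2, TRA2A, HNRNPA1 and RBM39. The core occurred in 6 of these 51 windows, those of SRSF1, SRSF5, TRA2B, HNRNPA2B1, HNRNPF and HNRNPK, and in 10.9% of all 35116 windows of this length. GAANNTTC, the core letters of the heat shock element, occurred in 4 of 51 against 5.78% of all windows, and CCAAT in 21 of 51 against 32.0%. These matches are letters in a window and describe no binding.

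Per kb of transcript, the most abundant members were hnRNPs. HNRNPA2B1 had a mean over the 8 libraries of 256 CPM per kb, HNRNPA1 245 and HNRNPC 216. SRSF5 (89.5 CPM per kb) was the highest SR gene, at rank 16 of 40. The lowest members were PTBP2, the neuronal relative of PTBP1, at 6.05 CPM per kb and HNRNPUL2 at 8.77. Together, the 40 genes took 1.03% to 1.26% of all counts in a library.

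With H2O2, 8 of the 40 members changed in the fit over both lines. SRSF8, RBM39 and HNRNPU rose, and HNRNPA3, HNRNPA1, HNRNPA2B1, HNRNPUL1 and HNRNPL fell, each in the same direction in 4 of 4 pairs. Over all 19784 genes, 10.2% were called higher and 12.7% lower, so 3 higher of 40 was under the background and 5 lower of 40 was level with it. The median over the members was 0.031, against -0.037 over all genes tested. Of the role groups, 1 of 13 SR and TRA2 genes was called, 6 of 20 hnRNP and PTB genes, 0 of 5 branch point and 3′ splice site genes (0 at an unadjusted p under 0.05 with edgeR), and 1 of the 2 RBM genes.

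SRSF8 went from 35.0 to 52.2 CPM in 22RV1 vector cells, from 35.9 to 48.8 in 22RV1 PAGE4 cells, from 39.6 to 68.4 in DU145 vector cells and from 40.2 to 66.3 in DU145 PAGE4 cells with H2O2. It was higher with H2O2 than with PBS in every line and construct, and the H2O2 libraries of both lines lay above all 4 PBS libraries. Its log2 fold change was 0.63 ± 0.10 (adjusted p = 0.00619). SRSF8 is an SR protein closely related to SRSF2, from an intron-poor gene.

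RBM39 is a coactivator that binds U2AF2 and helps select 3′ splice sites. It went from 169 to 248 CPM in 22RV1 vector cells, from 188 to 222 in 22RV1 PAGE4 cells, from 188 to 325 in DU145 vector cells and from 169.9 to 330.3 in DU145 PAGE4 cells, and all 4 H2O2 libraries lay above all 4 PBS libraries. The log2 fold change was 0.64 ± 0.12 (adjusted p = 0.0120), and without the DU145 vector pair it was 0.58 and no longer called. HNRNPU, a nuclear scaffold protein that binds RNA and chromatin, went from 737 to 892 CPM in 22RV1 vector cells, from 790.1 to 1047 in 22RV1 PAGE4 cells, from 767 to 1154 in DU145 vector cells and from 827 to 1159 in DU145 PAGE4 cells. It also lay higher in every H2O2 library than in any PBS library, with a log2 fold change of 0.44 ± 0.089 (adjusted p = 0.0138), which lost its call without the DU145 vector pair (0.39) or the DU145 PAGE4 pair (0.42).

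HNRNPA3 encodes an hnRNP of the A/B family, as do HNRNPA1, a classical exon silencer, and HNRNPA2B1, which also guides RNA transport. HNRNPA3 went from 93.5 to 60.6 CPM in 22RV1 vector cells, from 94.0 to 59.9 in 22RV1 PAGE4 cells, from 284 to 160.1 in DU145 vector cells and from 317 to 180.4 in DU145 PAGE4 cells with H2O2. Its log2 fold change was -0.73 ± 0.084 (adjusted p = 0.00230), and the 2 lines did not overlap at either treatment. NFE2L2, the gene of the oxidative stress regulator NRF2 that overlaps it, had a log2 fold change of 0.20 ± 0.081 (adjusted p = 0.122) and was higher with H2O2 in all 4 pairs. The part of NFE2L2 reads in the HNRNPA3 count was not tested.

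HNRNPA1 went from 838 to 605 CPM in 22RV1 vector cells, from 997 to 738 in 22RV1 PAGE4 cells, from 1240.1 to 794 in DU145 vector cells and from 1252 to 883 in DU145 PAGE4 cells. Within each line, both H2O2 libraries lay below both PBS libraries, with a log2 fold change of -0.51 ± 0.084 (adjusted p = 0.00710). HNRNPA2B1 fell from 960.0 to 668 CPM in 22RV1 vector cells, from 1073 to 709 in 22RV1 PAGE4 cells, from 1109 to 854 in DU145 vector cells and from 1149.7 to 901 in DU145 PAGE4 cells, a log2 fold change of -0.46 ± 0.087 (adjusted p = 0.0108). Its call was lost without the 22RV1 vector pair (-0.42). All 4 H2O2 libraries lay below all 4 PBS libraries for HNRNPA2B1, whereas for HNRNPA1 the DU145 PAGE4 library with H2O2 lay above the 22RV1 vector library with PBS.

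HNRNPUL1 is a relative of HNRNPU known from DNA end processing. It went from 322 to 257 CPM in 22RV1 vector cells, from 331 to 254 in 22RV1 PAGE4 cells, from 594 to 465 in DU145 vector cells and from 647 to 479.6 in DU145 PAGE4 cells. Both H2O2 libraries were below both PBS libraries in each line, and the log2 fold change was -0.37 ± 0.077 (adjusted p = 0.0149). HNRNPL, which binds CA-rich elements, went from 234 to 198 CPM in 22RV1 vector cells, from 235 to 209.5 in 22RV1 PAGE4 cells, from 208 to 159.9 in DU145 vector cells and from 221 to 177 in DU145 PAGE4 cells. Its change was the smallest of those called, -0.28 ± 0.081 (adjusted p = 0.0457). Leaving out any 1 of the 4 pairs ended the calls of HNRNPUL1 (-0.35 to -0.38) and of HNRNPL (-0.25 to -0.30), and HNRNPL was also not called with DESeq2 size factors, total counts or no filter (-0.19 to -0.29). Of the 40 members, 7 were called without the 22RV1 PAGE4 pair, 5 without the 22RV1 vector pair, 5 without the DU145 PAGE4 pair and 4 without the DU145 vector pair. HNRNPA3, SRSF8 and HNRNPA1 were called in all 9 alternatives.

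**Figure D1:**
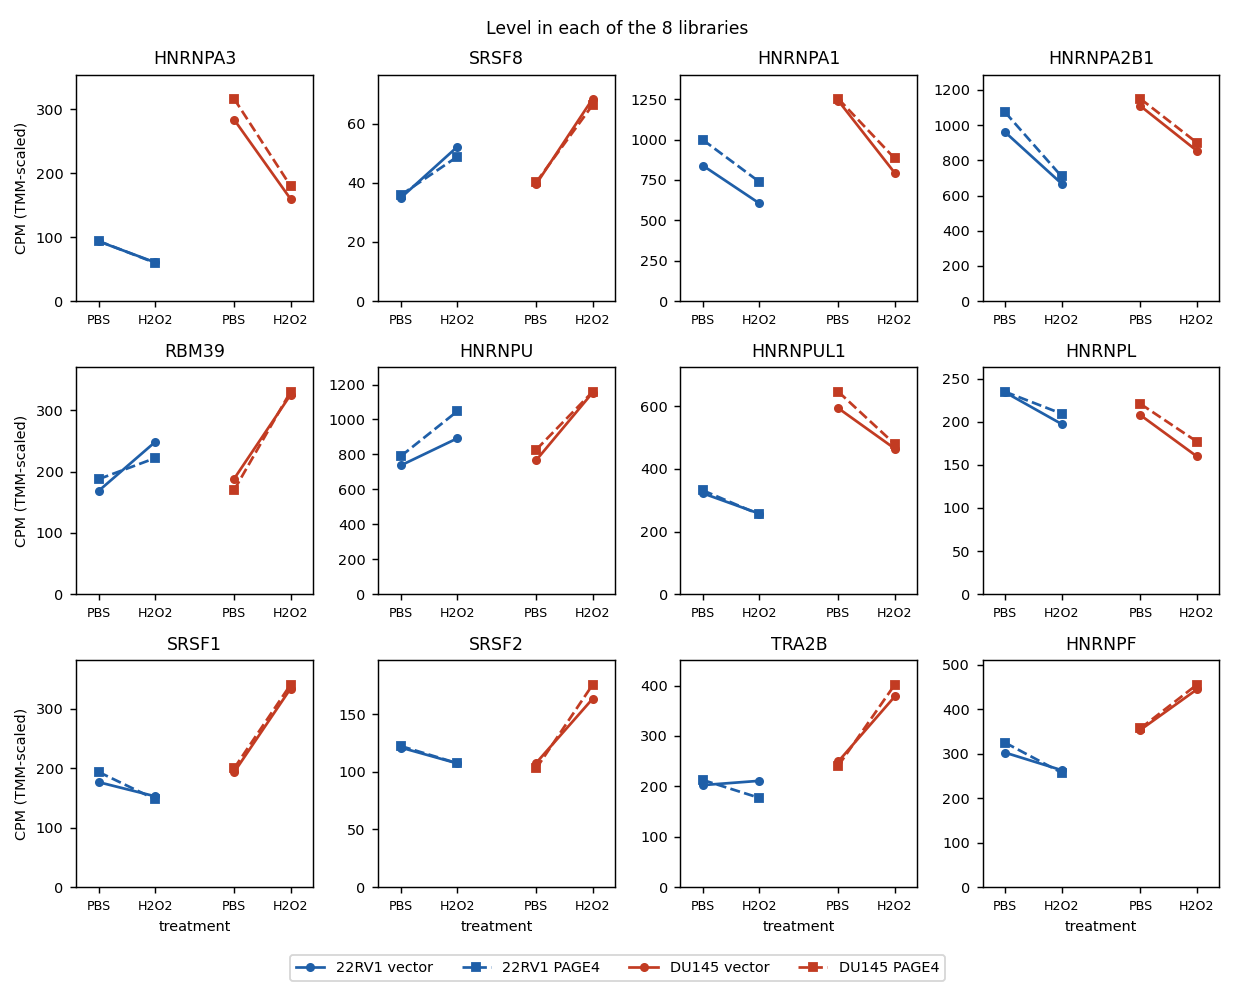
Level of 12 members in each of the 8 libraries, as TMM-scaled CPM from 0 on the y axis, against treatment on the x axis, with 22RV1 in blue, DU145 in red, circles for vector and squares for PAGE4, 1 library per point and no error bars. HNRNPA3 fell from 284 to 160.1 CPM in DU145 vector cells, SRSF8 rose in all 4 pairs, and SRSF1, SRSF2, TRA2B and HNRNPF climb in both DU145 pairs.

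Taken by line, 17 members were called with H2O2 in 22RV1 cells, 5 higher and 12 lower, where 15.2% of all genes were called higher and 16.9% lower. In DU145 cells 24 members were called, 14 higher and 10 lower, where 19.2% of all genes were called higher and 22.8% lower. The median over the members was -0.10 in 22RV1 and 0.15 in DU145, against -0.0050 and -0.046 over all genes. In 22RV1, 2 were called higher and 12 lower without the 22RV1 vector pair, and 5 higher and 7 lower without the 22RV1 PAGE4 pair. Scaled by total counts, the median of all genes moved to 0.11 in 22RV1, and 8 members were then called higher and 4 lower there. In DU145 the same scaling gave 18 higher and 8 lower, and in the fit over both lines 6 higher and 4 lower. Without the DU145 vector pair, 15 members were called in DU145, 9 higher and 6 lower, and with the DU145 libraries fitted alone, 33. None of the members called with TMM scaling changed sign under either other scaling.

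Against these shares of all genes (15.2% higher and 16.9% lower in 22RV1, 19.2% and 22.8% in DU145), the calls were spread over the role groups as follows. Of the 13 SR and TRA2 genes, 1 was called higher and 2 lower in 22RV1, against 7 higher and 2 lower in DU145. The 7 in DU145 were SRSF1, SRSF2, TRA2B, SRSF8, SRSF6, SRSF11 and SRSF4, with log2 fold changes of 0.36 to 0.78, and the 2 lower ones were the abundant SRSF5 (-0.42) and SRSF9 (-0.32). Of the 20 hnRNP and PTB genes, 1 was called higher and 9 lower in 22RV1, and 6 higher and 8 lower in DU145. The 6 in DU145 were HNRNPU (0.54), HNRNPF (0.34), HNRNPC (0.29), HNRNPAB (0.28), HNRNPH3 (0.27) and PTBP1 (0.20). HNRNPM, called lower in DU145 (-0.40), and HNRNPD, the AU-rich element binder called lower in 22RV1 (-0.26), were each called in 1 line. The median log2 fold change was -0.075 in 22RV1 and 0.36 in DU145 over the SR and TRA2 genes, and -0.18 and 0.012 over the hnRNP and PTB genes. The 5 factors of the branch point and 3′ splice site gave SF3A1 higher (0.21) and U2AF2 lower (-0.25) in 22RV1 and no call in DU145, where 1 had an unadjusted p under 0.05 with edgeR. RBM39 was called higher in both lines and RBM5, a regulator of splicing of apoptosis genes, in 22RV1 (0.31 ± 0.10).

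The same direction was called in both lines for 10 members. SRSF8, HNRNPU and RBM39 were higher in both, where 8.07% of all genes were, and HNRNPA1, HNRNPA2B1, HNRNPA3, HNRNPH1, HNRNPK, HNRNPL and HNRNPUL1 were lower in both, where 10.0% of all genes were. With total counts, only 4 of the 40 members were called lower in 22RV1, so not all of these 7 kept that call. The lines share no library, but both effects came from 1 fit with a shared estimate of the spread. SRSF1 and HNRNPF were called lower in 22RV1 and higher in DU145, as 0.809% of all genes were. No member was called higher in 22RV1 and lower in DU145, where only 1.4% of all genes were. Called in neither line were 11 members, as were 46.3% of all genes. These members were SRSF3, SRSF7, TRA2A, HNRNPA0, HNRNPH2, HNRNPR, HNRNPUL2, U2AF1, SF3B1, SF3B2 and PTBP2.

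**Figure D2:**
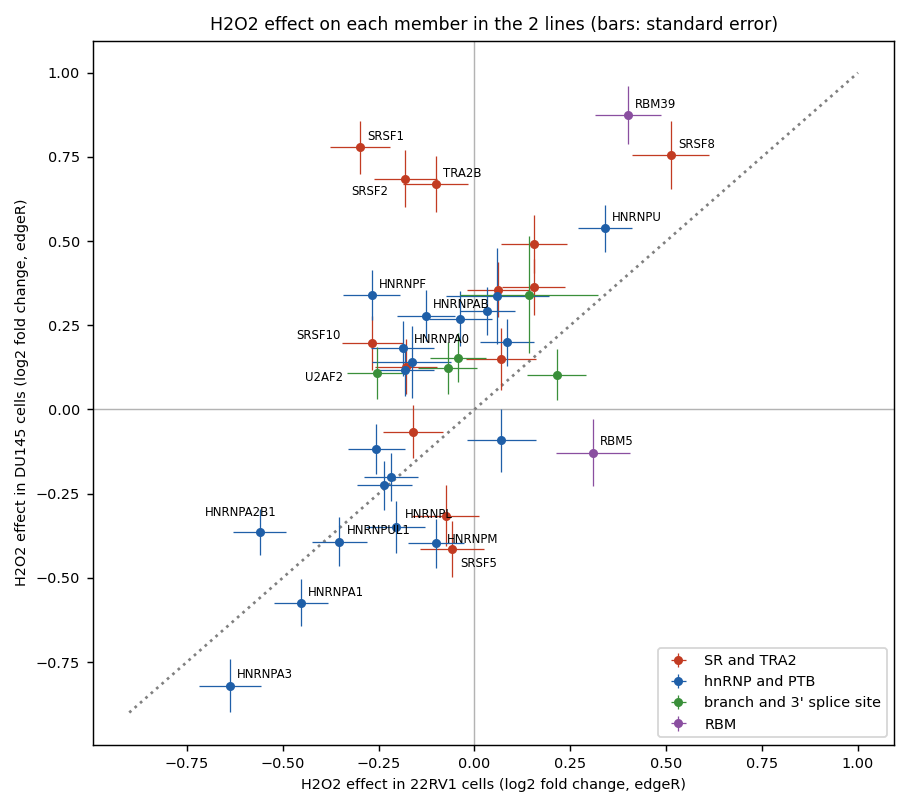
Log2 fold change with H2O2 in 22RV1 cells (x axis) and in DU145 cells (y axis) for the 40 members, with bars of 1 standard error, colours for the role groups and a dotted line where both would be equal. SRSF1, SRSF2, TRA2B and HNRNPF lie left of 0 and above it, HNRNPA3 lies at -0.64 and -0.82, and RBM5 lies right of 0 and under the dotted line.

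The difference of the H2O2 effect between the lines was tested directly, as DU145 minus 22RV1. It was called for 12 members, 9 of them higher in DU145 and 3 lower, where 8.88% of all genes were called higher and 10.6% lower. The median difference was 0.20 over the members and -0.035 over all genes. SRSF1, SRSF2, TRA2B and HNRNPF had the lowest p-values, and these 4 were called in all 8 alternatives.

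SRSF1, the prototype SR protein, which promotes exon inclusion and is an oncogene when overexpressed, had the largest difference. It went from 176 to 153 CPM in 22RV1 vector cells, from 193 to 148 in 22RV1 PAGE4 cells, from 193 to 334 in DU145 vector cells and from 199.7 to 340.3 in DU145 PAGE4 cells. Both 22RV1 pairs went down and both DU145 pairs went up, and the PBS libraries of both lines lay between 176 and 199.7 CPM. Its effect was -0.30 ± 0.078 in 22RV1 (adjusted p = 0.00614) and 0.78 ± 0.078 in DU145 (adjusted p = 1.52e-07), a difference of 1.08 ± 0.11 (adjusted p = 9.61e-07). The call in 22RV1 was lost under total counts (adjusted p = 0.0913), and that in DU145 was not (adjusted p = 3.45e-08).

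SRSF2, an SR protein that binds exonic enhancers and is mutated in myeloid neoplasms, went from 121 to 107 CPM in 22RV1 vector cells, from 122 to 107 in 22RV1 PAGE4 cells, from 108 to 163 in DU145 vector cells and from 103 to 175 in DU145 PAGE4 cells. It was lower with H2O2 in both 22RV1 pairs, which did not pass the test (-0.18 ± 0.083, adjusted p = 0.106), and higher in both DU145 pairs (0.69 ± 0.083, adjusted p = 1.67e-06). The difference was 0.87 ± 0.12 (adjusted p = 2.65e-05). TRA2B, which binds GAA-rich exonic enhancers, went from 202 to 211 CPM in 22RV1 vector cells, from 212 to 177 in 22RV1 PAGE4 cells, from 249 to 378 in DU145 vector cells and from 241 to 402 in DU145 PAGE4 cells. The 22RV1 pairs of TRA2B went opposite ways, both DU145 pairs rose, and the difference was 0.77 ± 0.12 (adjusted p = 1.14e-04).

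HNRNPF, which binds runs of G beside splice sites, went from 302 to 263 CPM in 22RV1 vector cells, from 325 to 257 in 22RV1 PAGE4 cells, from 354 to 445 in DU145 vector cells and from 357 to 455 in DU145 PAGE4 cells. Its effect was -0.27 ± 0.074 in 22RV1 (adjusted p = 0.00848) and 0.34 ± 0.074 in DU145 (adjusted p = 8.92e-04), a difference of 0.61 ± 0.10 (adjusted p = 3.26e-04), and at both treatments the DU145 libraries lay above the 22RV1 libraries. Under total counts, 4 members in place of 12 were called lower in 22RV1, so calls of a fall in that line depend on the scaling. The other 8 differences of the H2O2 effect between the lines were smaller. SRSF10, RBM39, HNRNPAB, U2AF2 and HNRNPA0 were 0.36 to 0.47 higher in DU145, and RBM5, SRSF5 and HNRNPM were -0.30 to -0.44. Without the DU145 PAGE4 pair 4 members were called and without the DU145 vector pair 6, all higher in DU145. The split was 15 higher and 1 lower with DESeq2 size factors, and 7 and 3 with total counts.

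By the 1.5-fold rule of the study, applied to each pair of libraries without a test, 2 members were past the limit with H2O2 in 22RV1 vector cells, 2 in 22RV1 PAGE4 cells, 8 in DU145 vector cells and 7 in DU145 PAGE4 cells. Among all genes that averaged 10 or more normalized counts in a line, 37.4%, 30.5%, 40.3% and 41.3% were past it, and the members' share of 40 was under this background in each pair. The background was not matched for level: it reaches down to 10 counts, and no member had under 219 counts in any library. Whether members changed less than other genes of their level was not tested. HNRNPA3 was past the limit in all 4 pairs, SRSF8 in 3, and SRSF1, SRSF2, TRA2B and RBM39 in both DU145 pairs. The largest fold was 2.02 for RBM39 in DU145 PAGE4 cells. With total counts, 0 members were past the limit downward in either 22RV1 pair, so HNRNPA3 was then not past it there, and with TMM 0 were past it upward in 22RV1 vector cells, where SRSF8 was just inside it.

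**Figure D3:**
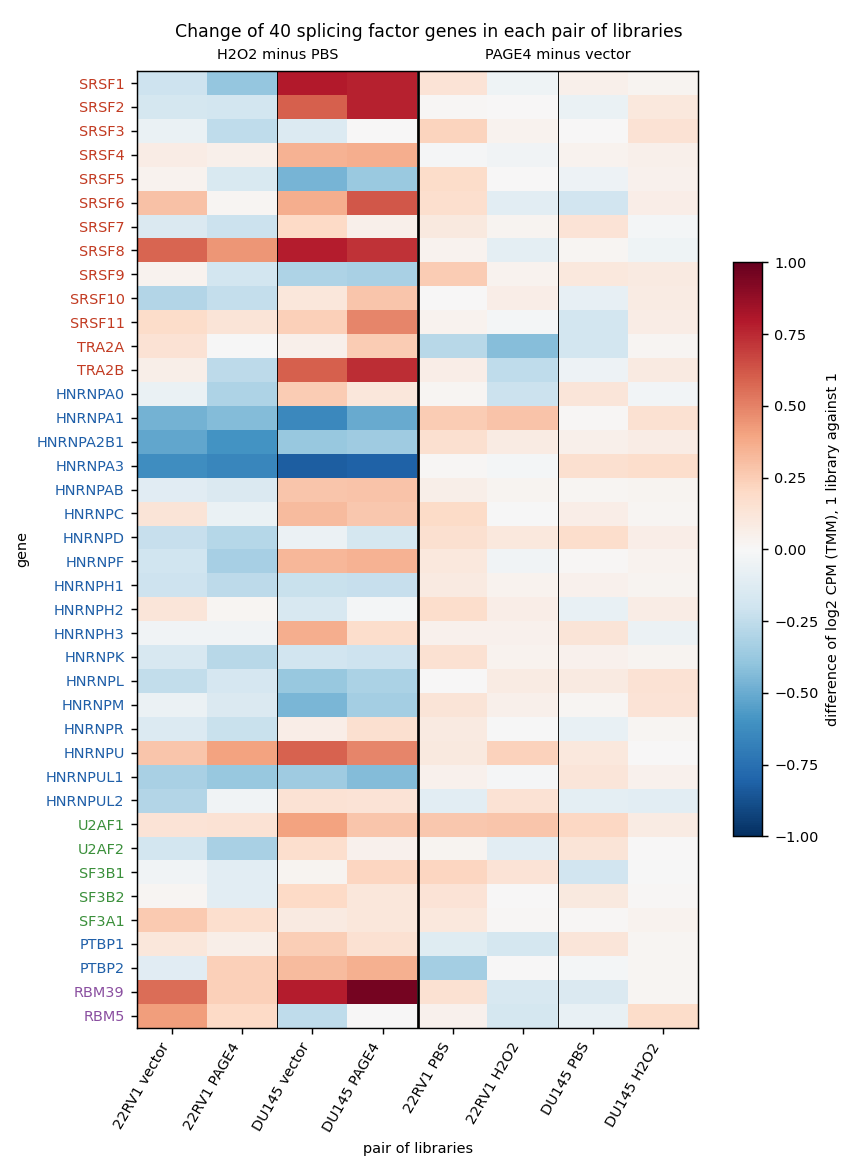
Difference of log2 CPM for the 40 members (rows, names coloured by role group) in each pair of libraries (columns), H2O2 minus PBS in the 4 columns on the left and PAGE4 minus vector in the 4 on the right, on a colour scale from -1 (blue) to 1 (red). The columns on the left hold strong colours, such as HNRNPA3 in blue and RBM39 in red, and those on the right stay pale.

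The summed level of the 13 SR and TRA2 genes relative to the 20 hnRNP and PTB genes does not depend on the scaling of a library. This ratio went from 0.271 to 0.304 in 22RV1 vector cells, from 0.268 to 0.279 in 22RV1 PAGE4 cells, from 0.234 to 0.295 in DU145 vector cells and from 0.218 to 0.298 in DU145 PAGE4 cells with H2O2. It was higher with H2O2 in all 4 pairs, by more in DU145 than in 22RV1. These ratios are descriptions of 1 library each and were not tested.

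With PAGE4, no member passed the test. In the edgeR fit of PAGE4 against vector over both lines, 0 of 40 were called, where 0.136% of all genes were. At an unadjusted p under 0.05 with edgeR, 3 of the 40 passed, as did 1585 of 19784 genes, a similar share. DESeq2 called 0 members and 79 of all genes. The edgeR estimates lay between -0.22 and 0.21 with standard errors of 0.056 to 0.13. The lowest p-values were those of HNRNPA1 (0.18 ± 0.064, adjusted p = 0.526) and of TRA2A, the paralog of TRA2B (-0.22 ± 0.080, adjusted p = 0.526). HNRNPA1 was higher in PAGE4 cells in 4 of 4 pairs. TRA2A was at 78.1 and 64.3 CPM in vector and PAGE4 cells of 22RV1 with PBS, 86.1 and 64.1 with H2O2, 86.6 and 76.3 in DU145 with PBS, and 89.6 and 90.9 with H2O2. No member was past 1.5-fold in any of the 4 pairs, where 19.7% of genes were in 22RV1 with PBS, 23.2% in 22RV1 with H2O2, 15.3% in DU145 with PBS and 15.2% in DU145 with H2O2. These shares again came from genes not matched to the members for level. PAGE4 and a difference between cultures cannot be told apart in this design.

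The PAGE4 effect was then compared between the lines, and 0 members were called by edgeR, where 2.49% of all genes were. At an unadjusted p under 0.05 with edgeR, 3 members and 2762 of 19784 genes passed. DESeq2 called 0 members and 353 of all genes. SF3B1, the branch point subunit that is mutated in several cancers, was at 268 and 311 CPM in vector and PAGE4 cells of 22RV1 with PBS, 262 and 289 with H2O2, 292 and 255 in DU145 with PBS, and 298 and 297 with H2O2. It was higher with PAGE4 in both 22RV1 pairs and lower or level in both DU145 pairs, a difference of -0.27 ± 0.11 (adjusted p = 0.241). PTBP1, an exon repressor that binds pyrimidine tracts, was at 452 and 416 CPM in vector and PAGE4 cells of 22RV1 with PBS, 489 and 433 with H2O2, 722 and 784 in DU145 with PBS, and 859 and 869 with H2O2. It lay the other way, lower with PAGE4 in 22RV1 and higher in DU145 (0.21 ± 0.10, adjusted p = 0.335).

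Whether PAGE4 altered the H2O2 effect was tested as the difference of that effect between PAGE4 and vector cells. No member was called by edgeR or DESeq2, 0 had an unadjusted p under 0.05 with edgeR, and 0.0% of all genes were called. The estimates lay between -0.19 and 0.19, with standard errors of 0.19 to 0.48, so that most differences of this size were not detectable. The fit takes 1 H2O2 effect for both lines, so differences of that effect between the lines count as spread. The median standard error over the members was 0.23, against 0.11 in the test of the difference between lines. Only 52 of 19784 genes had an unadjusted p under 0.05 with edgeR, so the 0 calls cannot show that PAGE4 left the H2O2 effect unaltered. HNRNPA0, an hnRNP that binds AU-rich elements, went from 218 to 208 CPM in 22RV1 vector cells, from 221 to 179 in 22RV1 PAGE4 cells, from 212 to 253 in DU145 vector cells and from 230.1 to 248 in DU145 PAGE4 cells, and its estimate was -0.19 ± 0.24 (adjusted p = 0.999987). PTBP2 went from 25.7 to 23.8 CPM in 22RV1 vector cells, from 20.3 to 23.9 in 22RV1 PAGE4 cells, from 14.9 to 18.6 in DU145 vector cells and from 14.7 to 18.8 in DU145 PAGE4 cells, and its estimate was 0.19 ± 0.30 (adjusted p = 0.999987). In both genes the vector and PAGE4 pairs differed by less in DU145 than in 22RV1.

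Between the lines, 23 members differed over the 4 matched pairs, 20 higher and 3 lower in DU145, where 30.1% of all genes were called higher and 33.1% lower. The members' median was 0.27, against -0.066 over all genes. Total counts moved the median of all genes to -0.27 and left 13 calls, 7 higher and 6 lower, and without the vector H2O2 pair 15 were called. The calls were 6 higher and 0 lower of 13 SR and TRA2 genes, 11 higher and 2 lower of 20 hnRNP and PTB genes, 3 higher and 0 lower of the 5 branch point and 3′ splice site genes and 0 higher and 1 lower of the 2 RBM genes. The fit averages PBS and H2O2 pairs, and some gaps differed between treatments. In log2 CPM, vector then PAGE4, SRSF1 was 0.13 and 0.047 higher in DU145 with PBS and 1.13 and 1.20 with H2O2. TRA2B was 0.30 and 0.18 higher with PBS and 0.84 and 1.18 with H2O2, and HNRNPF 0.23 and 0.14, then 0.76 and 0.82. SRSF5 (0.78 and 0.54, then 0.28 and 0.33) and HNRNPM (0.68 and 0.57, then 0.29 and 0.37) went the other way. The 3 largest differences were those of HNRNPA3, U2AF1 and HNRNPUL1. HNRNPA3 was 1.59 ± 0.10 higher in DU145 (adjusted p = 8.91e-06) and the 4 libraries of each line did not overlap. NFE2L2 on its opposite strand was 1.32 ± 0.095 higher in DU145 (adjusted p = 1.70e-05), and its part in the HNRNPA3 difference was not tested. HNRNPUL1 was 0.90 ± 0.088 higher (adjusted p = 7.66e-05), and the 4 libraries of each line did not overlap either.

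U2AF1, which recognises the AG of the 3′ splice site, was counted at 5.80, 6.37, 6.98 and 7.73 CPM in 22RV1 vector PBS, vector H2O2, PAGE4 PBS and PAGE4 H2O2 and at 10.4, 13.8, 12.0 and 14.6 CPM in the same order in DU145. The libraries did not overlap and the difference was 0.92 ± 0.16 (adjusted p = 0.00155), but its reads cannot be told apart from those of U2AF1L5. RBM5 was lower in DU145, at 76.9, 103, 79.3 and 91.0 CPM in 22RV1 and 54.3, 45.4, 51.6 and 51.6 CPM in DU145 in that order, a difference of -0.78 ± 0.13 (adjusted p = 0.00122) without overlap. PTBP2 was also lower (-0.49 ± 0.14, adjusted p = 0.0153), while its paralog PTBP1 was higher (0.85 ± 0.10, adjusted p = 1.96e-04). The call of PTBP2 was lost without the vector PBS pair (-0.39). HNRNPH2, an X-linked relative of HNRNPH1, was at 69.2, 75.4, 78.2 and 79.1 CPM in 22RV1 and 65.7, 58.7, 62.5 and 61.7 CPM in DU145 in that order (-0.28 ± 0.10, adjusted p = 0.0395), without overlap, and its call was lost without the PAGE4 H2O2, the PAGE4 PBS or the vector H2O2 pair (-0.25 to -0.27). The other 17 genes that were higher in DU145 differed by 0.29 for SRSF8 to 0.85 for PTBP1.

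**Figure D4:**
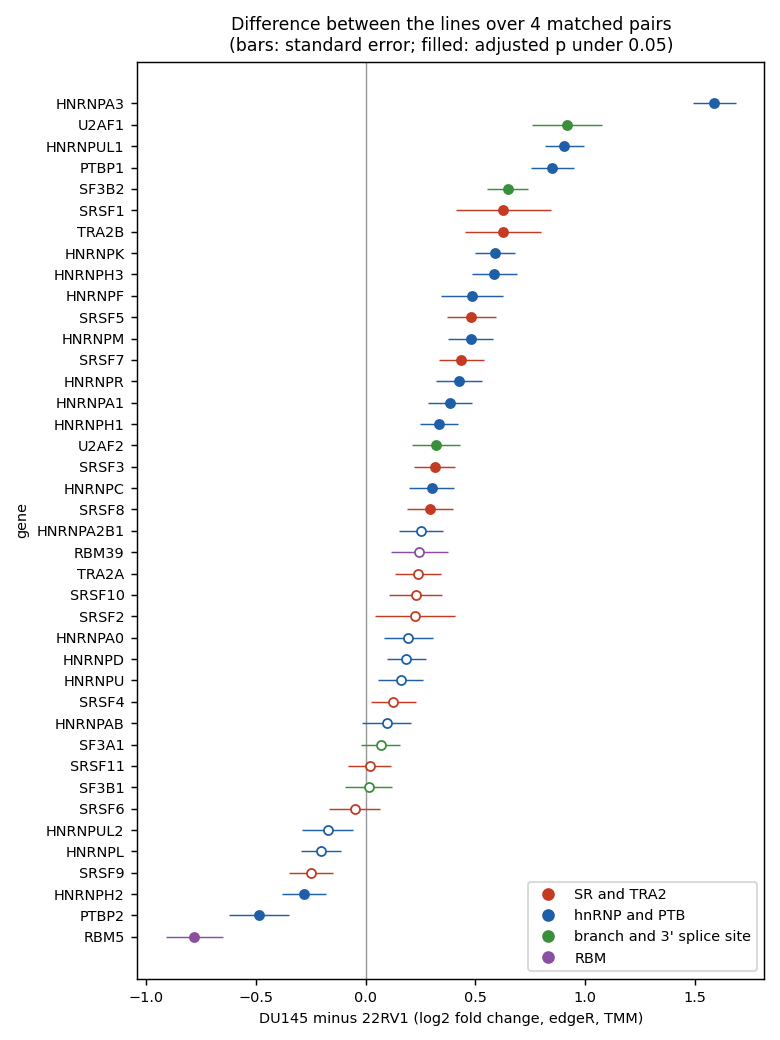
Difference between the lines for the 40 members, sorted by size, as log2 fold change of DU145 minus 22RV1 on the x axis with bars of 1 standard error, coloured by role group and filled where the adjusted p was under 0.05. HNRNPA3 stands apart at 1.59, 19 further filled points lie right of 0, and HNRNPH2, PTBP2 and RBM5 lie left of it.

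Genes that act on these factors, listed beside the members, were counted in the same H2O2 fit over both lines, where 10.2% of all genes were called higher and 12.7% lower. Of 9 kinases and import factors of SR proteins, 3 were called higher and 0 lower. CLK1, a nuclear SR protein kinase, went from 31.1 to 62.4 CPM in 22RV1 vector cells, from 38.8 to 49.7 in 22RV1 PAGE4 cells, from 15.9 to 40.4 in DU145 vector cells and from 14.7 to 38.8 in DU145 PAGE4 cells, a log2 fold change of 1.02 ± 0.18 (adjusted p = 0.00865). CLK3 (0.66 ± 0.11) and DYRK1A (0.41 ± 0.12) were the other called kinases. Of 10 genes of nonsense-mediated decay, 6 were called higher and 0 lower, among them SMG5 (0.76 ± 0.094, adjusted p = 0.00289), the helicase gene UPF1 (0.76 ± 0.14) and SMG9 (0.71 ± 0.15). The median over these 10 genes was 0.49, against -0.037 over all genes. Of 19 other SR-related genes, RSRC2, SREK1 and BCLAF1 were called higher (0.64 ± 0.11, 0.41 ± 0.11 and 0.63 ± 0.19) and RSRC1 lower (-0.45 ± 0.10). By line, the calls were 2 higher and 0 lower among the kinases and import factors in 22RV1 and 6 higher and 1 lower in DU145, 7 higher and 0 lower and 7 higher and 0 lower among the decay genes, and 1 higher and 1 lower and 10 higher and 2 lower among the SR-related genes. Over all genes, 15.2% were called higher and 16.9% lower in 22RV1, and 19.2% and 22.8% in DU145, so the counts of the SR-related genes in 22RV1 were under the background.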

How the data were processed

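RNA-seq gene counts of 8 libraries were analysed. The submitters' processing notes name HISAT2 2.1.0, featureCounts 1.6.0 and GRCh38, from which the authors deposited unnormalized read counts for each gene in 1 table per cell line. Both tables were joined here by symbol. The annotation release, strand setting and treatment of multiply mapped reads are not given in the sources used here. Counts were filtered (filterByExpr, by line) and scaled by TMM. All genes that passed entered glmQLFit and glmQLFTest (edgeR 4.0.16, R 4.3.3), with the 4 matched pairs of a comparison as blocks and Benjamini-Hochberg adjustment. The 4 pairs are the study's own combinations and stand in for replicates, and for an effect within 1 line only the pairs of that line do. The 1.5-fold rule used DESeq2 1.42.0 size factors within a line, a minimum average of 10 normalized counts and a pseudocount of 0.5.

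Values in every library are given for the members with the 8 lowest p in the H2O2 fit over both lines, the 4 lowest in the difference between lines, the 2 lowest in each PAGE4 test and the 3 largest differences called in each direction between lines. Of the companion lists, genes called in the H2O2 fit over both lines were named, at most 4 a list, and some are not reported here. The members and lists were chosen with earlier results of these data known. Alternatives were DESeq2 size factors, total counts, no filter, DESeq2's Wald test, cell line alone as the block, the 4 libraries of a line alone, another fold limit and pseudocount, and leaving out each pair. The scripts were tested on simulated data.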

Additional observations from a re-analysis of the deposited data

Results flagged for a closer look

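The H2O2 effect differed between the lines, by a direct test, for 12 of the 40 members, given here as DU145 minus 22RV1 on the log2 scale. Of the SR and TRA2 genes, the difference was 1.08 for SRSF1, 0.87 for SRSF2, 0.77 for TRA2B, 0.46 for SRSF10 and -0.36 for SRSF5. Among the hnRNPs, it was 0.61 for HNRNPF, 0.41 for HNRNPAB, 0.37 for HNRNPA0 and -0.30 for HNRNPM. U2AF2, which binds the pyrimidine tract, differed by 0.36, RBM39 by 0.47 and RBM5 by -0.44. RBM39 rose in both lines, by 0.40 in 22RV1 and 0.87 in DU145. The highest adjusted p over the 8 alternatives was 6.32e-05 for SRSF1, 0.00291 for SRSF2, 0.00592 for TRA2B and 0.00869 for HNRNPF with edgeR or DESeq2, and over 0.05 for the other 8.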

How the results depend on the processing

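Leaving out each pair in turn gave 4 to 7 called members for H2O2 over both lines (8 with all pairs), 12 to 15 in 22RV1 (17), 15 to 29 in DU145 (24), 4 to 16 for the difference between lines (12) and 15 to 22 between 22RV1 and DU145 (23). Where this left 1 pair in a line, that pair was assumed to vary like the others. A fold limit of 2 in place of 1.5 left 1 member past it with H2O2 instead of 10, because the limit is higher. Total counts left 13 members between the lines, 7 higher and 6 lower. The 3 PAGE4 tests gave 0 members under every alternative. In the difference of the H2O2 effect between PAGE4 and vector cells, leaving out a pair gave -0.40 to 0.052 for HNRNPA0 and -0.049 to 0.41 for PTBP2, with the sign turned without the 22RV1 PAGE4 pair and the 22RV1 vector pair, respectively, and no call. Over the named members and all their alternatives, 179 values kept direction and side of the threshold and 21 lost the call, and the cause was not tested. With 1 library per condition, changes of the size of the standard errors above were not detectable. With cell line alone as the block in place of the matched pairs, 11 members were called for H2O2 over both lines, 5 higher and 6 lower, and 0 for PAGE4.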

Other observations

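The following counts are for H2O2 over both lines, where 10.2% of all genes were called higher and 12.7% lower. Of 33 listed genes of the core snRNPs and spliceosome, 8 were called higher and 3 lower, among them BUD31 (0.64 ± 0.094, adjusted p = 0.00515), the tri-snRNP genes PRPF4 (0.71 ± 0.11) and PRPF3 (0.76 ± 0.14) and, lower, SNRPA of the U1 snRNP (-0.47 ± 0.083). In DU145 alone, 20 of the 33 were called higher and 5 lower, where 19.2% and 22.8% of all genes were, and in 22RV1 6 were called higher and 6 lower, where 15.2% and 16.9% of all genes were. Of 26 further RNA-binding regulators, 0 were called higher and 4 lower, a share near that of all genes. At an unadjusted p under 0.05 with edgeR, 11 of the 26 passed in either direction, as did 7416 of all 19784 genes, again a similar share. The 4 called lower were KHDRBS1 (-0.42 ± 0.079), the RNA stability factor ELAVL1 (-0.37 ± 0.079), the stress granule protein TIA1 (-0.43 ± 0.12) and the epithelial splicing regulator ESRP2 (-0.40 ± 0.11).

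In the difference of the PAGE4 effect between the lines, 2 of these 26 genes were called, TIA1 and ESRP1, where 2.49% of all genes were. TIA1 was at 76.7 CPM in vector and 91.4 in PAGE4 cells of 22RV1 with PBS, 64.4 and 81.5 with H2O2, 77.8 and 63.0 in DU145 with PBS, and 47.6 and 41.3 with H2O2, a difference of -0.55 ± 0.13 (DU145 minus 22RV1, edgeR adjusted p = 0.0237). ESRP1, chosen after its values were seen, was at 119 CPM in vector and 112 in PAGE4 cells of 22RV1 with PBS, 125 and 115 with H2O2, 28.0 and 45.1 in DU145 with PBS, and 52.0 and 73.8 with H2O2, a difference of 0.70 ± 0.13 (adjusted p = 0.00353).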
